A study of Mus musculus with 28 samples.

Results

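Kinesins are motor proteins that use ATP to move along microtubules. In sensory neurons, whose axons reach from the skin to the spinal cord, they carry vesicles, mitochondria, cytoskeletal proteins and ion channels outwards from the cell body, while the dynein complex carries cargo back. A second set of kinesins builds the mitotic spindle and moves chromosomes in dividing cells, and adult sensory neurons do not divide.

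The kinesin genes were taken by name: all heavy chains called Kif or Kifc followed by a number, and all light chains called Klc followed by a number. This gave 44 of the 45952 genes listed. From textbook knowledge, 19 were listed as transport kinesins, 12 as mitotic kinesins and 13 as other kinesins, which depolymerise microtubules, serve cilia and centrioles or have less settled roles.

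RNA sequencing was used to ask whether sensory neurons of the dorsal root ganglion (DRG) differ between male and female mice. Naïve neurons came from 11 male and 11 female libraries. They were sorted by fluorescence (FACS) from uninjured adult AdvGFP mice (the Tg(Avil-EGFP)QD84Gsat line), whose peripheral sensory neurons glow green because the reporter EGFP is placed under the promoter of advillin. Injured neurons came from 3 male and 3 female libraries of adult C57BL/6J mice on day 8 after partial sciatic nerve ligation (SNL), purified from ganglia on the injured side by magnetic sorting (MACS), with the estrus stage of the females identified. Each library pooled a pair of mice. Some naïve replicates were from trigeminal ganglia, and the labels do not say which. Per the labels, satellite glial cells are a contaminant of the FACS libraries and erythrocytes of the MACS libraries. According to the paper, magnetic sorting yields small-diameter C-fibre nociceptors alone, whereas FACS took GFP-positive cells. No sham libraries were used here, so injury, strain, purification and neuron type cannot be told apart.

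Libraries held 24800048 to 40035653 input reads in the naïve and 30544219 to 50649730 in the SNL experiment. Expression was given as FPKM, fragment counts scaled to transcript length and to library size, so that levels can be compared between genes. Neuronal markers were high in all 28 libraries, with a summed FPKM of 1260 to 2298 (naïve) and 1818 to 3210 (SNL). The 6 satellite glia markers summed to 1231 to 6530 in naïve and 39.1 to 75.6 in SNL libraries, and no marker of the list was at 0 in every library of an experiment. The 5 erythrocyte markers summed to 0.369 to 71.6 and 561 to 18891. Trunk Hox genes, which are off in cranial ganglia, summed to under 1 in 4 naïve libraries (males 2 and 10, females 2 and 11). RNA integrity numbers (RIN, on a scale up to 10 for intact RNA) were 5.2 to 9.9 in 21 naïve libraries, and male library 8 had none. In SNL libraries they were 5.8 to 9.1.

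Because the transport and mitotic sets are contrasted here, sequences in front of the start sites are shown for 4 genes. They are Kif11, a spindle motor below the expression filter, Kif22, the single mitotic kinesin above it, and Klc1 and Kif3a, transport kinesins among the highest. Each is the 250 bases before a RefSeq start site (GRCm38.p6), 5′ to 3′ on the gene's strand. Capitals mark CCAAT, the CCAAT box, and TTTGAA, one form of the cell cycle homology region (CHR) known from cell cycle genes, read on either strand (ATTGG and TTCAAA).
Kif11 (chr19:37376132-37376381, plus strand): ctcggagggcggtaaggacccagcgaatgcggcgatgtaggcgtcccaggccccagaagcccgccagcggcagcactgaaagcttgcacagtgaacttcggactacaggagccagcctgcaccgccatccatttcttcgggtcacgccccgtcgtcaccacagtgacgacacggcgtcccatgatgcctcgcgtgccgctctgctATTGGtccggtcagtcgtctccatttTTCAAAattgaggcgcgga
Kif22 (chr7:127042421-127042670, minus strand): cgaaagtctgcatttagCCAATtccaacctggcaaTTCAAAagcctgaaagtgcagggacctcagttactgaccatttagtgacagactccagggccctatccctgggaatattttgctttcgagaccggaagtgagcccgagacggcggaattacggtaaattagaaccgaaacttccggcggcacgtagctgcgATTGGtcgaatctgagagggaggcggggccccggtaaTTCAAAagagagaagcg
Klc1 (chr12:111758618-111758867, plus strand): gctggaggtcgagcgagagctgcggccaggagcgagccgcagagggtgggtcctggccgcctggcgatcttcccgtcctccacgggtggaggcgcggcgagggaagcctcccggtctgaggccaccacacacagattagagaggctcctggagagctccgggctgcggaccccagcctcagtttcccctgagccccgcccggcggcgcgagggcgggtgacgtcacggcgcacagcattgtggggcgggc
Kif3a (chr11:53567119-53567368, plus strand): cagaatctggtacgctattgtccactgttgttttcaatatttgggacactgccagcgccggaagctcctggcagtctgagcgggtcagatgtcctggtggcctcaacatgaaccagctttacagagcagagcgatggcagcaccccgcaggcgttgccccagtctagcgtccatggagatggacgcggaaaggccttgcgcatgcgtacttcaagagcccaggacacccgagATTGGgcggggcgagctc

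In Kif11 the motifs nearest the start began at -45 (CCAAT) and -19 (CHR), counted from the first transcribed base as 0, and in Kif22 at -54 and -17. Kif3a held CCAAT at -18 and no CHR, and Klc1 held neither. Windows were found for 35 of the 44 genes. CCAAT was in 7 of 11 mitotic windows and 6 of 16 transport windows, against 33.9% of all 32841 windows of this length. TTTGAA was in 5 of 11 mitotic windows and 1 of 16 transport windows, against 16% of all. Both were in 3 of 11 mitotic windows (Kif11, Kif14 and Kif22), 0 of 16 transport windows and 2 of 12 windows of the other kinesins, against 5.55% of all. The mitotic examples shown, Kif11 and Kif22, are thus among the few with both, while Kif18a and Kif20b held neither. GCGGGAA, an E2F-like motif, was in 0 of 11 mitotic, 0 of 16 transport and 2 of 12 other windows and in 3.82% of all. Median GC content was 62% in mitotic, 67.8% in transport and 60.4% in other windows, against 52.4% in all. Some windows lie wholly inside the GENCODE span of their gene. Among them are those of Kif14, Kif2c, Kif4, Kif17 and Kif27 and a Kif1a window. The motif counts include these windows, with the TTTGAA matches of Kif14, Kif2c, Kif27 and Kif1a, although they may hold intron sequence. A match describes letters and was not tied to binding.

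Transport kinesins made up nearly all kinesin FPKM in every library, and mitotic kinesins had low FPKM. The mitotic sums and ratios hold Kif4 and Kif20a at an FPKM of 0 in naïve neurons, although the authors' mean normalized count, a separate measure, was 485 and 155 for them and 74.9 for Kif22. Of the 19 transport kinesins, 16 passed the expression filter in naïve neurons (a minimum FPKM of 1, reached by 3 or more libraries of one sex) and 15 passed in SNL neurons (2 or more libraries of one sex). Of the 12 mitotic kinesins, 1 passed in each experiment, and of the 13 other kinesins 5 and 4 passed. Since members pass on their own level, these counts describe level only. In bulk libraries, fewer cells of a type and less RNA per cell cannot be told apart. Transport kinesins summed to 674 to 1189 FPKM in naïve and 1021 to 1493 in SNL libraries, which was 96% to 98% and 96% to 97.8% of all kinesin FPKM. Mitotic kinesins summed to 0.441 to 13.3 and 8.78 to 18.3 FPKM, or 0.0457% to 1.38% and 0.595% to 1.41%. The ratio of the 2 sums had a median of 184 over naïve libraries (range 69.9 to 2104) and 89.3 over SNL libraries (67.9 to 164). The ratio was highest in female naïve library 6, where Kif22 was lowest.

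**Figure D1:**
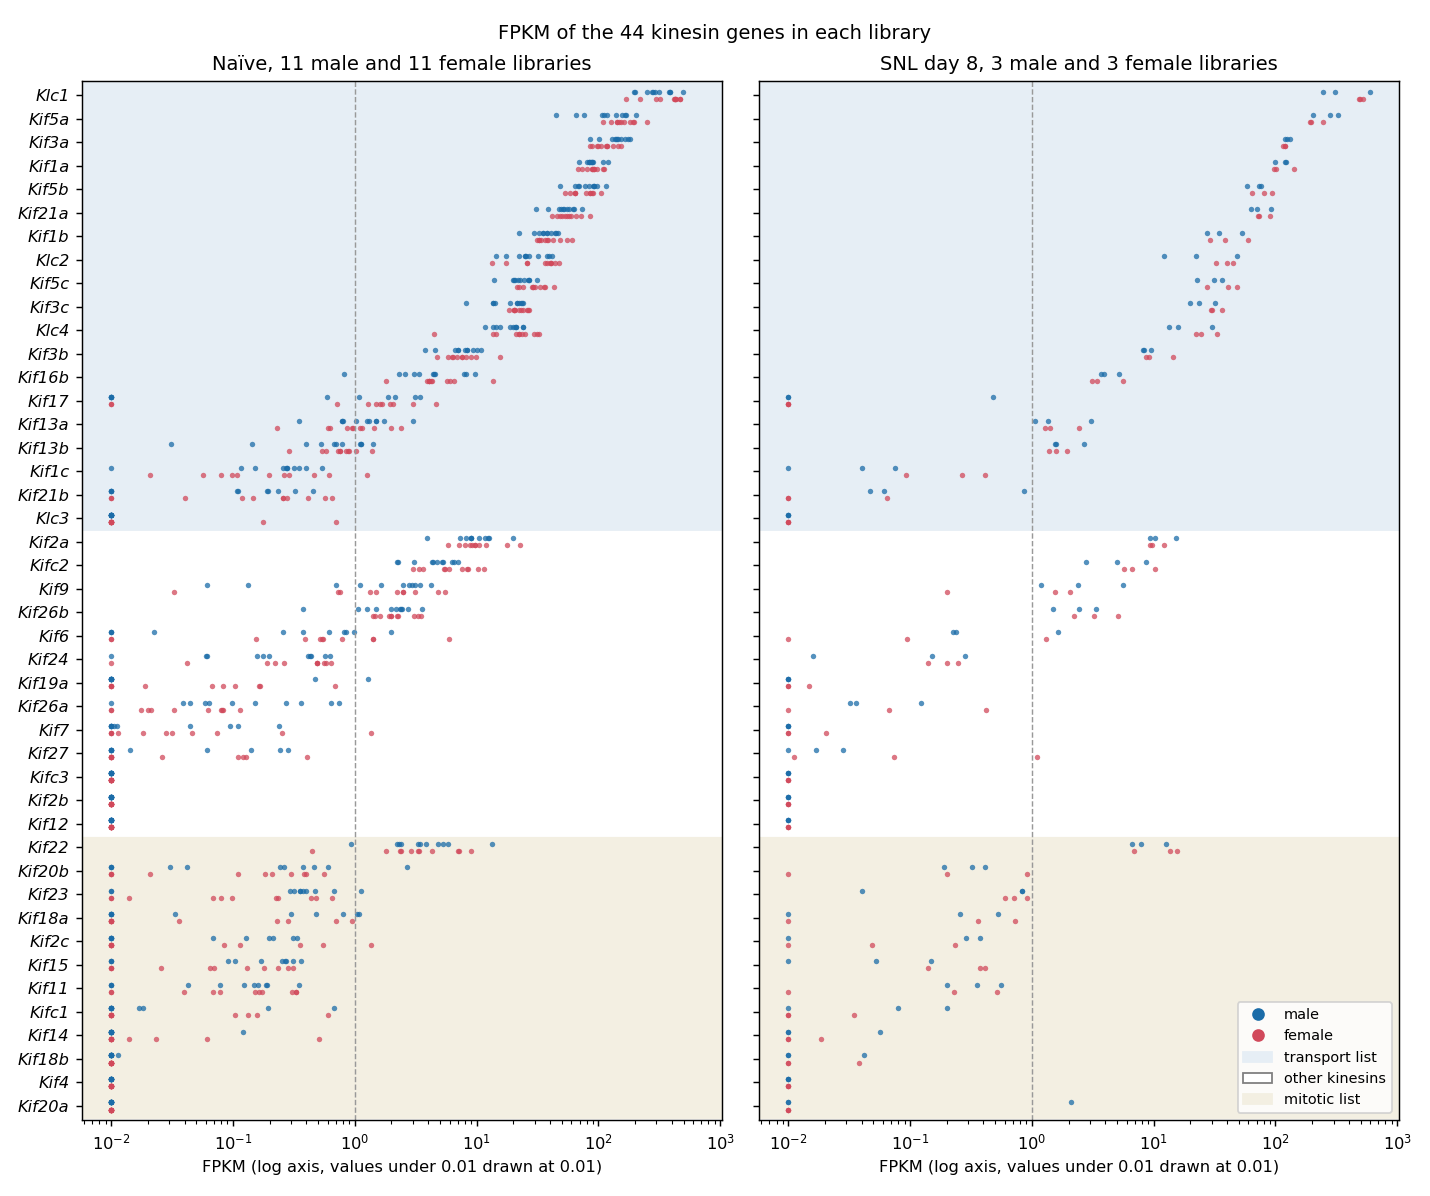
FPKM of the 44 kinesin genes (log axis, values under 0.01 drawn at 0.01) in each naïve library (left) and SNL library (right), with males in blue and females in red and the dashed line at an FPKM of 1. The transport kinesins reach from Klc1, with a mean of 343 FPKM in naïve neurons, down to Klc3, while Kif22 is the single mitotic kinesin with most of its points above 1.

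Klc1 (ENSMUSG00000021288; 12:111758849-111807844 on the plus strand) encodes a kinesin light chain, the subunit that links Kif5 motors to cargo, and was the highest kinesin in both experiments. Its FPKM was 197 to 493 (median 290.3) in male and 169.9 to 471 (median 427) in female naïve libraries. After SNL it was 244, 595 and 311 in males 1 to 3 and 525, 485 and 491 in females 1 to 3. The male and female ranges overlapped in both experiments. Klc1 took 85% to 90.4% of the light chain FPKM in naïve and 87.1% to 89.7% in SNL libraries, the narrowest range of the 4 families compared. Klc2, another light chain, averaged 30.8 ± 10.3 (SD, n = 22) and 33.2 ± 13.8 (SD, n = 6).

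The 3 Kif5 genes encode the heavy chains of conventional kinesin, the main motor of fast axonal transport. Kif5a (ENSMUSG00000074657; 10:127225696-127263348 on the minus strand), which is enriched in neurons, ranged from 45.0 to 202 FPKM (median 119) in male and from 110.1 to 251 (median 154) in female naïve libraries. After SNL its FPKM was 325, 281 and 202 in males and 245, 192 and 197 in females. Male libraries thus held both the lowest naïve and the highest SNL values, and the sexes overlapped in each experiment. Kif5b, the ubiquitous form, averaged 79.0 ± 17.4 (SD, n = 22) in naïve and 74.6 ± 12.5 (SD, n = 6) in SNL libraries. Kif5c, the other neuronal form, averaged 26.7 ± 6.58 and 34.4 ± 9.13. Kif5a took 37.4% to 71.6% of the Kif5 FPKM in naïve and 59.5% to 80.1% in SNL libraries, so its share varied more between libraries than that of Klc1 among the light chains. The lowest naïve shares were in male libraries 7 (37.4%, RIN 5.5), 11 (41.9%, RIN 8.6) and 3 (42.7%, RIN 5.2). The highest was in female library 11, which was low in trunk Hox genes. The others low in these genes, male 2, male 10 and female 2, had 54.5%, 58.6% and 61.5%.

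Kif3a (ENSMUSG00000018395; 11:53567379-53601967 on the plus strand) is the shared subunit of the kinesin-2 motor, which moves vesicles in axons and cargo in cilia and pairs with Kif3b or Kif3c. Its FPKM was 85.6 to 182 (median 141) in male and 85.0 to 154 (median 115) in female naïve libraries. After SNL it was 119, 133 and 124 in males and 121, 119 and 115 in females, the smallest relative spread of the kinesins that passed (SD of 0.0505 times the mean, n = 6). Of its partners, Kif3c averaged 20.6 ± 4.66 and 28.6 ± 5.95, and Kif3b 7.81 ± 2.51 and 9.69 ± 2.32, in naïve (n = 22) and SNL (n = 6) libraries. Kif3c made up 57.5% to 82.6% and 70.9% to 77.8% of the partners' FPKM.

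Kif1a (ENSMUSG00000014602; 1:93015464-93101951 on the minus strand), the kinesin-3 motor of synaptic and dense core vesicle precursors, averaged 90.01 ± 13.2 FPKM in naïve (n = 22) and 114 ± 17.4 in SNL libraries (n = 6). Among the kinesins that passed in naïve neurons it had the smallest spread, an SD of 0.147 times the mean, against a median of 0.418 over all genes that passed. Its relative Kif1b, which carries mitochondria and vesicles, averaged 39.0 ± 8.73 and 40.3 ± 13.1. Kif21a, a kinesin-4 motor that curbs microtubule growth, averaged 55.1 ± 11.99 and 76.6 ± 11.5. The mean levels in naïve neurons fell in the order Klc1, Kif5a, Kif3a, Kif1a, Kif5b, Kif21a, Kif1b and Klc2. The means differed by less than the SD of either gene for the neighbours Kif5a and Kif3a, Kif1a and Kif5b, and Kif1b and Klc2, so these pairs were not separated beyond their spread.

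**Figure D2:**
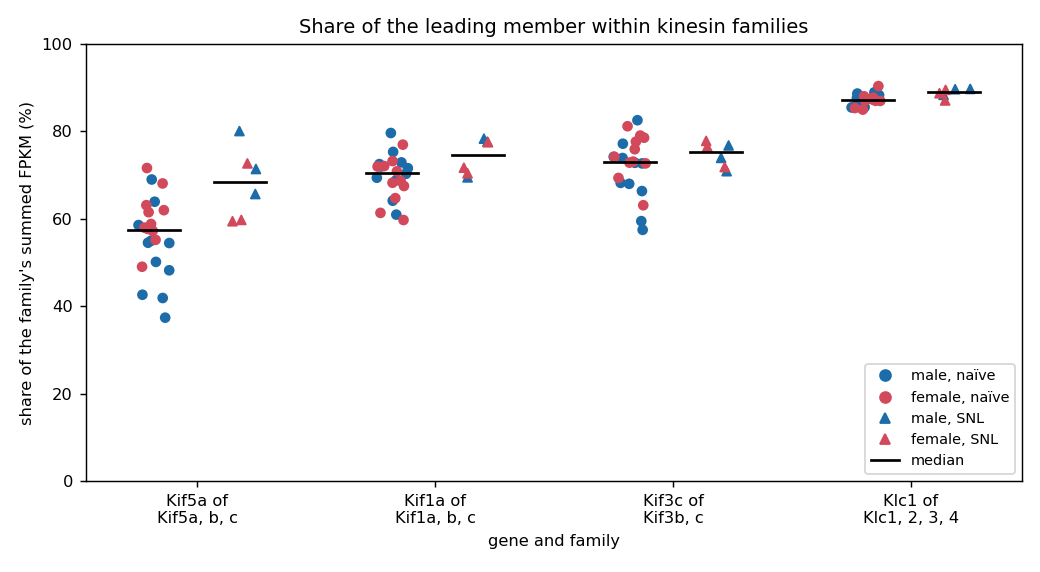
Share of the leading member in the summed FPKM of 4 kinesin families (y axis, percent), for naïve (circles) and SNL libraries (triangles), males in blue and females in red, with the median as a bar. Kif5a spans 37.4% to 71.6% of its family in naïve libraries, while Klc1 stays between 85% and 90.4%.

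Of the mitotic kinesins, only Kif22 (ENSMUSG00000030677; 7:127027729-127042471 on the minus strand), a chromokinesin that binds chromosome arms, was measured above 0 in every library of both experiments. Its FPKM was 0.935 to 13.3 (median 3.44) in male and 0.441 to 9.04 (median 3.32) in female naïve libraries. After SNL it was 7.93, 6.69 and 12.6 in males and 6.92, 15.7 and 13.6 in females. The erythrocyte markers summed to 2322, 1618 and 18891 FPKM in these males and 561, 9223 and 6833 in these females. Male 3 and females 2 and 3 thus had the highest values of both, and also the lowest RIN (5.8, 7.4 and 8.1). The cause was not tested. The naïve and SNL ranges of Kif22 overlapped through 4 naïve libraries at 7.05 to 13.3. A pseudogene of Kif22 is annotated elsewhere in the genome and was not counted with it. Only unique matches were kept, so reads that match both may be missing from Kif22, which was not tested. Without Kif22 the mitotic kinesins summed to 0 to 3.62 FPKM in naïve and 1.86 to 3.08 in SNL libraries.

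The next mitotic kinesins were far lower. Kif20b, a motor of cytokinesis, averaged 0.311 ± 0.563 (SD, n = 22) in naïve and 0.340 ± 0.314 (SD, n = 6) in SNL libraries. Kif23, the motor of the central spindle, averaged 0.302 ± 0.280 and 0.655 ± 0.320. Kif18a, which dampens chromosome movement, was listed at 0 in 11 of 22 naïve libraries and reached 1.09. Kif20a, another cytokinesis motor, was listed at 0 in every naïve library and in 5 of 6 SNL libraries, and was 2.10 in male SNL library 3. The 11 mitotic kinesins below the filter had means of 0 to 0.311 in naïve and 0 to 0.655 in SNL libraries.

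Of 10 markers of proliferating cells 2 passed the filter in naïve and 1 in SNL libraries, and their sum was 0 to 17.8 and 3.31 to 12.6 FPKM. One of them, Ccna2, was listed at an FPKM of 0 throughout, with an authors' mean normalized count of 123 in naïve and 15.3 in SNL neurons, so its 0 is no absence of reads. The naïve library with the highest proliferation sum, male 11, had a mitotic kinesin sum of 4.27, below the median of 5.24, but this is a single library. Over the 22 naïve libraries, Kif22 and the proliferation sum had a Pearson's r of 0.258 and a Spearman's rho of 0.36, on log2(x + 1) values. The part of dividing cells in the level of Kif22 was not tested.

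**Figure D3:**
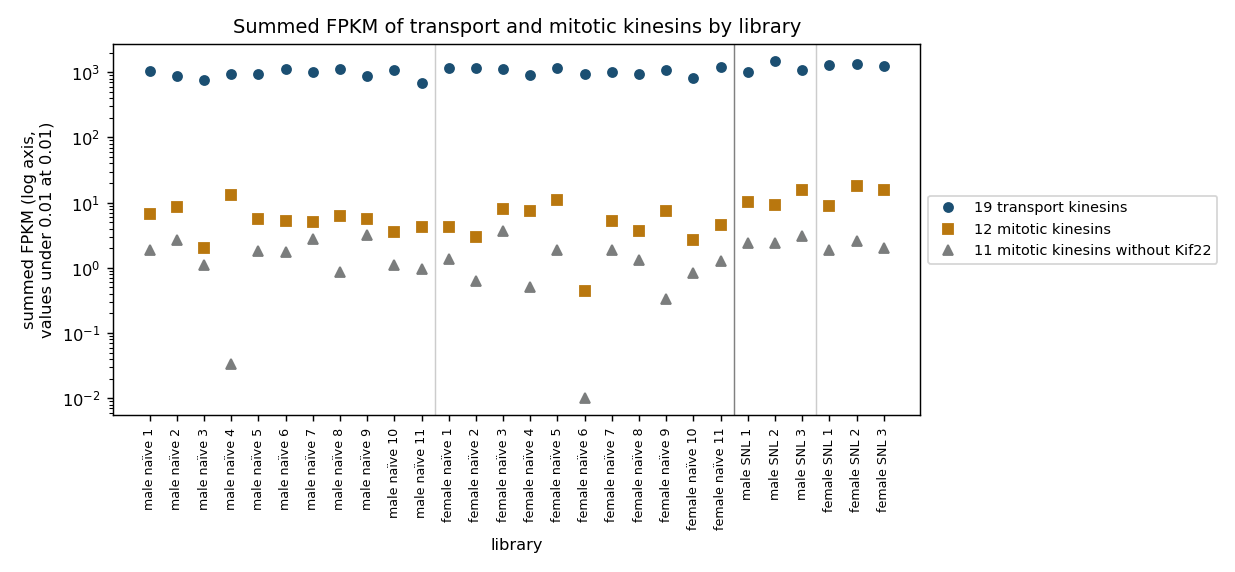
Summed FPKM (log axis) of the 19 transport kinesins (circles), the 12 mitotic kinesins (squares) and the mitotic kinesins without Kif22 (triangles) in each of the 28 libraries, with values under 0.01 drawn at 0.01. Transport sums lie at 674 FPKM or above in all libraries, and mitotic sums at 18.3 or below.

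An FPKM of 0 was not always an absence of reads. Kif4, Kif20a, Kif12, Kif2b and Kifc3 were listed at 0 in all 22 naïve libraries, and Kif4, Kif12, Kif2b, Kifc3 and Klc3 in all 6 SNL libraries. In the authors' mean normalized count, which was made from a separate count of reads per gene, Kif12 and Kif2b were 0 in both experiments. Kif4, a chromokinesin, had a mean of 485 in naïve and 1.97 in SNL neurons. Kif20a had 155 and 118, Kifc3, a minus-end directed kinesin, 74.4 and 109, and Klc3, a light chain, 55.2 and 1.12. Of the 22092 genes listed at 0 in all naïve libraries, 631 had such a mean of at least 50. Each of Kif4, Kif20a and Klc3 overlaps a protein-coding gene on the other strand (Pdzd11, Cdc23 and Ercc2), and 9 of the 44 kinesins have such an overlap in GENCODE vM21. The part of these overlaps in the values was not tested, and without strand the reads of such pairs cannot be told apart.

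No kinesin passed the threshold between the sexes in naïve neurons. The sexes were compared with limma on log2(FPKM + 1) values, and p-values were adjusted by Benjamini-Hochberg over all 12893 genes tested. Of all genes, 0.0388% were higher and 0.0155% lower in males at an adjusted p under 0.05, and 0 of 22 kinesins were called. At an unadjusted p under 0.05, 1 kinesin was higher and 3 were lower in males, beside 2.39% and 5.9% of all genes. The smallest adjusted p of a kinesin was 0.595.

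The 3 with the smallest p that were lower in males were Kif5c, Kif5a and Kif3c. Kif5c ran from 14.0 to 31.4 FPKM in male and from 21.3 to 42.8 in female libraries, a difference of -0.36 ± 0.14 (SE) on the log2 scale (limma adjusted p = 0.595). For Kif5a the difference was -0.49 ± 0.21 and for Kif3c -0.32 ± 0.16, with the same adjusted p. Of those higher in males, Kif3a differed by 0.30 ± 0.13 at the same adjusted p, Kif13a, a kinesin-3 motor of endosomes, by 0.10 ± 0.19 and Kif5b by 0.09 ± 0.14. The ranges of the sexes overlapped for each of these genes. Without male libraries 3 and 7, whose RIN was under 6, the count of kinesins called was 0, as it was without the libraries low in trunk Hox genes. The 2 low-RIN libraries were both male, and RIN was 5.2 to 9.5 in males and 7.7 to 9.9 in females.

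The estimate was below 0, that is lower in males, for 18 of 22 kinesins, with a median of -0.14, against -0.07 over all genes. With quantile normalization it was below 0 for 14 of 22 kinesins, and the share of all genes below 0 moved from 61% to 49.7%. For Kif1a, the kinesin with the narrowest interval, the difference was -0.005 with a 95% interval of -0.22 to 0.21. The intervals do not show that levels were equal, and the widest interval of a kinesin was ± 0.68.

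After SNL, 0 of 20 kinesins passed the threshold, with 0.0265% of 11303 genes higher and 0.0177% lower in males. No kinesin had an unadjusted p under 0.05 by limma, beside 1.11% and 2.57% of all genes. In 0 of 20 kinesins were all male libraries above all female libraries, and in 0 of 20 were they all below, beside 3.58% and 4.68% of all genes. The smallest adjusted p was 0.945.

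Klc2 had the smallest p, with 12.2, 48.0 and 22.3 FPKM in males and 44.4, 32.2 and 40.1 in females, a difference of -0.68 ± 0.43 (SE; limma adjusted p = 0.945). Male library 2 was the highest and male library 1 the lowest of the 6, so the spread within males exceeded the difference. Klc1 differed by -0.49 ± 0.31 and Kif3c by -0.37 ± 0.24, at the same adjusted p. Of the estimates above 0, Kif9, a kinesin of motile cilia, differed by 0.79 ± 0.50, from 2.38, 1.19 and 5.58 FPKM in males and 1.55, 2.04 and 0.203 in females. Kif5a differed by 0.33 ± 0.23 and Kif3a by 0.08 ± 0.17. Kif5a was therefore estimated lower in males in naïve and higher in males in SNL neurons, both short of the threshold, and the difference between the experiments was not tested because the tables were normalized separately. With 3 libraries a sex, 95% intervals of the SNL differences were ± 0.39 for Kif3a and ± 1.15 for Kif9.

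**Figure D4:**
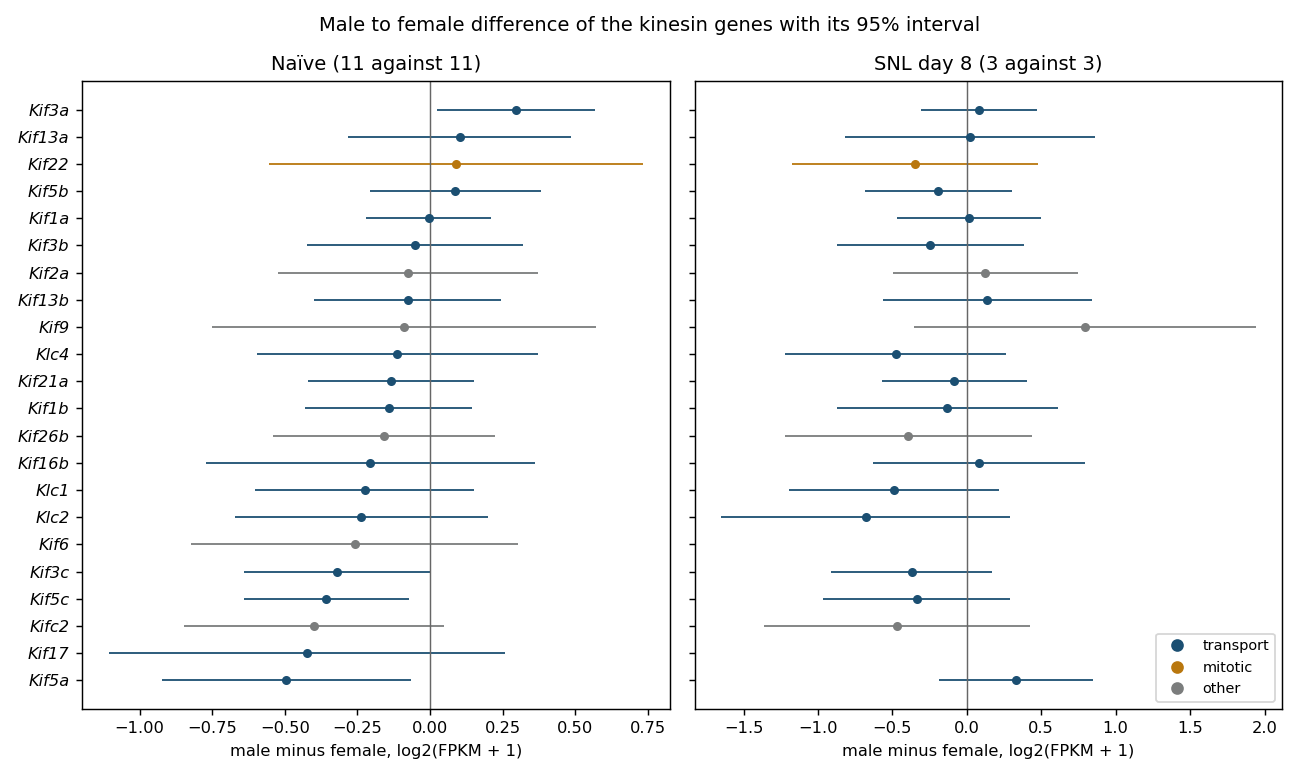
Male minus female difference in log2(FPKM + 1) (x axis) with its 95% interval from limma, for the 22 kinesins tested in naïve (left) and the 20 tested in SNL neurons (right), with transport kinesins in blue, mitotic in orange and other in grey. Intervals of Kif5a, Kif5c, Kif3a and Kif3c exclude 0 in naïve neurons before adjustment, and all intervals include 0 after SNL.

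RNA quality varied among the naïve libraries and was examined as a slope per RIN unit, with sex as a covariate, over the 21 libraries with a RIN. Of 12836 genes, 0.0467% were higher and 0.0234% lower at higher RIN, and 0 of 22 kinesins were called (limma, smallest adjusted p = 0.274). At an unadjusted p under 0.05, 3 kinesins were higher and 0 lower, beside 6.23% and 6.89% of all genes. The 3 were Kif13b, with a slope of 0.17 ± 0.07 log2 units per RIN unit, Kif13a with 0.19 ± 0.08 and Kif5a with 0.22 ± 0.09, all transport motors. The adjusted p was 0.274, 0.313 and 0.313. The smallest p among slopes below 0 belonged to Kif3a (-0.09 ± 0.06), Kif2a, a microtubule depolymerase (-0.10 ± 0.10), and Kif17, a dendritic and ciliary motor (-0.07 ± 0.16).

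Kif5a was 66.0 and 76.9 FPKM in the 2 libraries with a RIN under 6. It was 108 to 119 in 3 libraries between 6 and 8, and had a median of 159 in 16 libraries of at least 8. One of these 16, male library 11, had a RIN of 8.6 and the lowest Kif5a of all, 45.0. Without that library, the Kif5a slope was 0.28 with a limma adjusted p of 0.0246, 1 kinesin was called, and the genes called rose from 9 to 374. The call for Kif5a thus rested on whether 1 library was included. Male library 11 was also the lowest for Kif5b, Kif21a, Kif1b, Kif5c, Kif3c, Kif3b and Kif2a and the highest for Kif3a. The slope of Kif5a was 0.14 to 0.25 under the other alternatives, none of which called it.

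**Figure D5:**
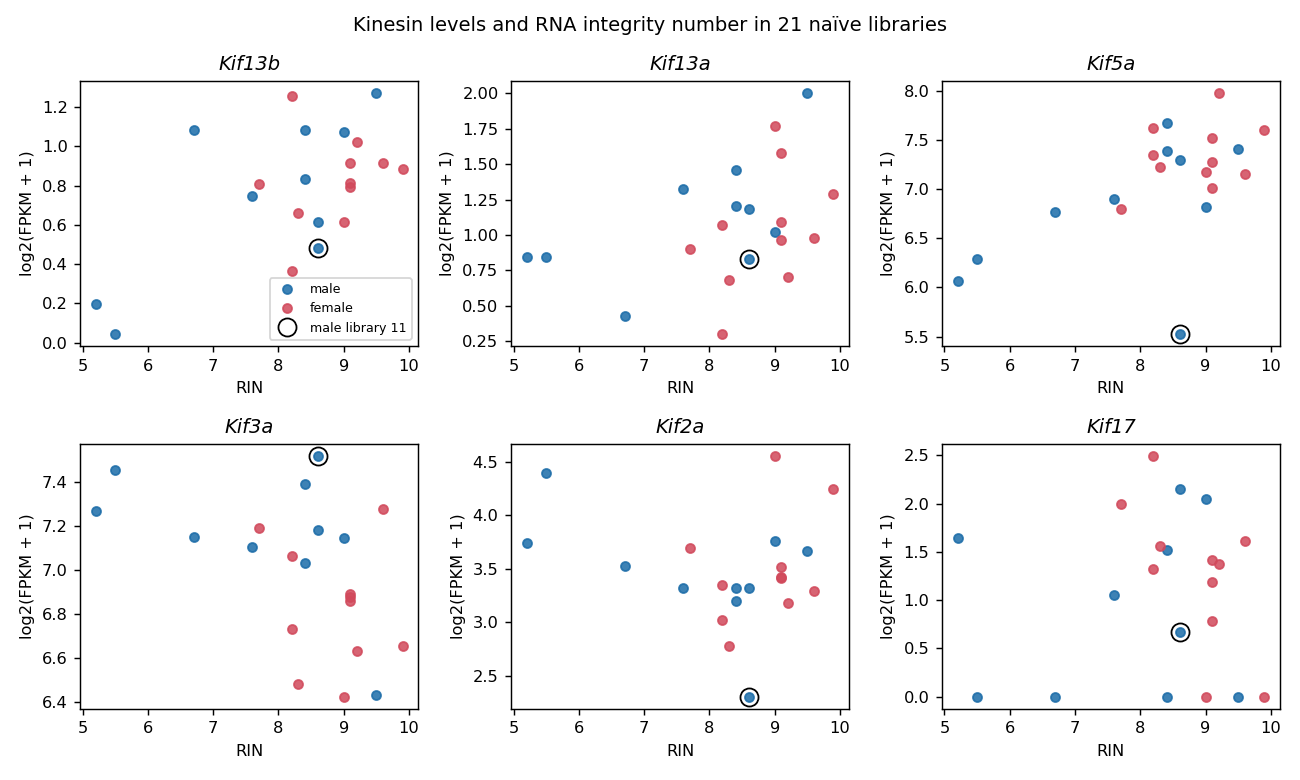
Log2(FPKM + 1) of 6 kinesins (y axes, each with its own range) against the RNA integrity number (x axis) in 21 naïve libraries, males in blue and females in red, with male library 11 ringed. Kif5a had a slope of 0.22 log2 units per RIN unit over all 21 libraries (limma adjusted p = 0.313). Its lowest value was in male library 11, with 45.0 FPKM at a RIN of 8.6.

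Naïve and SNL levels were set side by side only, since the tables were normalized separately. Injury, strain, purification and neuron type also differ together between them. Among 11039 genes that passed in both experiments, 1.04% had all 6 SNL values above all 22 naïve values and 0.77% had all below. Of the 20 kinesins among them, 0 were above and 0 were below. The median log2 ratio of SNL to naïve medians was 0.30 for the 20 kinesins and 0.12 for all genes. The ratio was highest for Kif22 (1.62), Kif13b (1.07), Kif5a (0.62), Kif3c (0.49) and Klc1 (0.47). Among SNL libraries, Kif22 and the erythrocyte sum were both highest in male 3 and females 2 and 3, and the cause was not tested. Below 0 lay Kif9 (-0.39), Kif16b (-0.16), Kif3a (-0.13), Kif5b (-0.12) and Kif1b (-0.05). Injured neuron markers (Atf3, Sprr1a, Gal and Sox11) summed to 782 to 2798 FPKM in SNL libraries. In naïve libraries they summed to 50.8 to 7155, with a median of 168. Gal, a neuropeptide, carried most of the naïve sum, reaching 6493 FPKM, while Atf3 reached 166 and Sprr1a 571. Sox11 was at most 5.41 in naïve and at least 8.25 in SNL libraries, so its ranges did not overlap.

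The partners of the kinesins were read in the same fits. The dynein and dynactin list held 24 genes, for the motor of retrograde transport and its activator. It included the dynein regulators and adaptors Pafah1b1, Nde1, Ndel1, Bicd1 and Bicd2. Of the list, 24 were tested in naïve and 23 in SNL neurons, and 0 were called between the sexes in either. At an unadjusted p under 0.05 by limma, 4 were higher and 0 lower in males in naïve neurons, beside 2.39% and 5.9% of all genes. The highest were Dynll1, a dynein light chain, at 826 ± 298 (SD, n = 22) and 607 ± 184 (SD, n = 6), and Dynlrb1, another light chain, at 626 ± 173 and 510.3 ± 59.1. All 18 cargo adaptors were tested in each experiment and 0 were called, with 0 higher and 3 lower in males at an unadjusted p under 0.05 in naïve neurons, beside the same shares of all genes. Fez1, an adaptor for Kif5 motors, averaged 884 ± 183 and 962 ± 157, and Arl8a, a lysosomal GTPase that recruits kinesins, 78.5 ± 19.3 and 85.0 ± 17.6. The median male minus female difference in naïve neurons was -0.002 for dynein and dynactin and -0.20 for the adaptors. Neither list had a call in the RIN slope.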

How the data were processed

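RNA from 28 libraries of purified sensory neurons was amplified with a SMARTer Ultra Low Input kit and sequenced. The authors mapped reads to mm10 with STAR (unique matches only) and joined lanes with SAMtools. The deposited FPKM were made by Cufflinks, corrected for fragment bias, transcript length and multi-mapped reads. Versions of these tools are not stated. A mean normalized count per gene, which the authors obtained with htseq (union mode) and DESeq2, is a pooled value with no error. The fold changes and p-values beside it belong to the authors' own comparison and were not used. The deposited RIN is a score of RNA integrity. No counts per library were used, so no count model was fitted, contrary to the study's own test, and FPKM carry no counting interval.

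FPKM were tested as log2(FPKM + 1) with limma 3.58.1 (R 4.3.3; lmFit, eBayes with an intensity trend), each table alone, for genes that reached an FPKM of 1 in 3 naïve or 2 SNL libraries of one sex. P-values were adjusted by Benjamini-Hochberg over all genes tested, with a threshold of 0.05. The fits were tested on simulated data. Differences on this scale understate changes of low genes. Each library pooled separate mice, and p-values measure the spread between such pools. Between libraries the highest Pearson r was 0.972 (naïve) and 0.981 (SNL), and none were merged.

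The members and lists were chosen with earlier results of these data known. Genes named were members past the threshold, the 8 highest members and the 4 highest mitotic members in each table, the 3 with the smallest p in each direction of each fit, and the 2 highest genes of the other lists. Kif3b, Kif14 and the members listed at 0 fall outside this rule and were chosen after their values were seen. Kif16b, the marker genes Atf3, Sox11 and Ccna2, and genes named only for their promoter windows also fall outside it. Alternatives were pseudocounts of 0.01 and 0.1, other filters, 2 scalings, covariates and left-out libraries. Gene spans are from GENCODE vM21 (GRCm38, the assembly called mm10), which held all 44 genes under the same names. Promoter windows are from RefSeq.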

Additional observations from a re-analysis of the deposited data

Results flagged for a closer look

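Members listed at an FPKM of 0 in every library of an experiment carried a signal in the authors' mean normalized count, a column that the comparisons did not use, above the 3 counts that a count of 0 allows. This was so for Kif4 (485), Kif20a (155) and Kifc3 (74.4) in naïve neurons and for Kifc3 (109) in SNL neurons. The libraries behind these means were not seen one by one. Kif12 and Kif2b, at 0 in both measures, were not among them.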

How the results depend on the processing

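Between the sexes, 0 kinesins were called under every alternative run in either experiment, and the 6 kinesins with the smallest p in each comparison (3 in each direction) kept their direction. Others turned: with quantile normalization 14 and with median-of-ratios scaling 16 of 22 naïve kinesins were below 0, against 18. Calls over all genes moved. In naïve neurons (7 genes called) a mean FPKM of at least 5 left 1, and leaving out single libraries gave 6 to 8. After SNL (5 genes) a pseudocount of 0.01, a mean FPKM of at least 5 and the replicate block each left 0, no filter gave 9, and leaving out single libraries gave 5 to 13 (8 without male 1, 13 without male 2 and without female 1). For the RIN slope (9 genes) a pseudocount of 0.01 gave 83, quantile normalization 14 and median-of-ratios scaling 17. Without libraries with a RIN under 6, without those low in trunk Hox genes, in males alone and in females alone it was 0. Leaving out single libraries gave 0 to 374 genes and 0 to 1 kinesins (fewer without male 3, 5, 7 or 9, more without male 4 or 11 or female 4 or 10), and leaving out male libraries 3 and 11 together, chosen after seeing the data, gave 58 genes. The median slope of the kinesins moved from 0.01 to 0.11 in females alone. The slope of Kif2a turned to 0.14 without libraries with a RIN under 6 and 0.27 in females alone, and was -0.14 to 0.0037 over single left-out libraries. That of Kif17 turned to 0.081 in males alone and 0.038 without male libraries 3 and 11, and was -0.21 to 0.031 over single left-out libraries (above 0 without male 3 and without male 5). The Kif5a slope was 0.28 without male library 11. The SNL ratio of transport to mitotic kinesins was 171 from medians in place of sums. The causes were not tested.

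The deviations of same-numbered male and female libraries had correlations of -0.16 to 0.28 (median -0.02) in naïve libraries. In SNL libraries they were -0.21 to 0.26 (median 0.20). The paper says that mice were handled in sex-matched batches. No label ties a number to a batch, so the numbers were not taken as pairs in the main fits. With the replicate block, 5 genes in naïve and 0 in SNL neurons were called, and 0 kinesins.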

Other observations

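Kif22 was high in the naïve libraries with a high sum of 4 injured neuron markers (Atf3, Sprr1a, Gal and Sox11), a pattern noticed after the values were seen. Male library 4 had the highest Kif22 (13.3 FPKM) and the highest marker sum (7155), and female library 5 was next in both (9.04 and 4134). Female library 6 had the lowest Kif22 (0.441) with a sum of 61.1. At the top the sum is mostly Gal, which reached 6493 FPKM in naïve libraries, while Sox11 stayed at or below 5.41, under its lowest SNL value of 8.25.

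Over the 22 naïve libraries, on log2(x + 1) values, Pearson's r was 0.729 and Spearman's rho 0.63. No p is given, because the pattern was found in these libraries and Kif22 was picked from 22 kinesins. Without the 2 libraries farthest from the median sum, male 4 and female 5, r was 0.527. For the 4 macrophage markers, of which Aif1 had by far the highest mean (13.7 FPKM), r was 0.215 and rho 0.465. Without the 2 libraries farthest from their median, female 10 and male 3, r was 0.524. The values of 0.527 and 0.524 are thus over different libraries. The relation is not shown to be particular to the injury markers. For the proliferating cell list r was 0.258 and rho 0.36. The cause was not tested.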
